A study of Mus musculus with 3 samples.

Results

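Amino acid transporters carry the building blocks of protein synthesis into the cell, and an activated T cell, which grows before it divides, depends on them. In T cells Slc7a5 and Slc3a2 form a heterodimer (system L, also called LAT1 and CD98) that exchanges intracellular glutamine for large neutral amino acids such as leucine. Leucine in turn is sensed by the growth kinase complex mTORC1, and the transporters for glutamine and leucine are known to be induced when naive T cells are activated. The 9 genes described here are Slc7a5, Slc3a2, Slc1a5, Slc1a4, Slc38a1, Slc38a2, Slc7a1, Slc7a6 and Slc7a11. They were chosen by gene symbol, and all 9 were among the 44788 symbols of the count table.

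The table held 3 RNA-seq libraries of splenic T lymphocytes from female BALB/c mice aged 6 to 8 weeks. The cells were isolated with magnetic beads against CD90.2 (Thy1), kept in RPMI medium with 2% fetal bovine serum, and cultured with LZ-8, an immunomodulatory protein of the fungus Ganoderma lucidum, for 15 h. The libraries form 1 group, all treated, and untreated cells were not analysed here. No level below can therefore be read as a response to LZ-8, and the comparisons are between genes and between libraries. Whether each replicate was its own mouse or culture is not stated, and p-values between libraries measure only the spread of these samples, which may be technical.

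Library totals ran from 12669690 to 19041670 counts. Levels are given as CPM (counts per 1000000 counts of the library), and, wherever genes are compared, as CPM per kilobase of the gene's merged exons. All 6 T cell identity markers and all 6 activation markers examined exceeded 100 CPM, with summed levels of 2240 to 2340 CPM and 4401 to 4644 CPM over the libraries. Lck (522 ± 11.6 CPM; SD, n = 3) and Cd5 (658 ± 21.3 CPM) led the identity markers, and Irf4 (2410 ± 101 CPM) and Il2ra (816 ± 19.2 CPM) the activation markers. Summed levels of other cell types were 14.6 to 16.6 CPM for 5 B cell markers, 3.71 to 4.76 CPM for 6 macrophage markers (Csf1r and C1qa at 0 reads), 9.19 to 11.5 CPM for 5 dendritic cell markers (Clec9a at 0 reads), 0.158 to 0.340 CPM for 5 neutrophil markers, 1.56 to 1.89 CPM for 5 erythroid markers and 0.368 to 1.03 CPM for 4 natural killer cell markers. Most of the macrophage sum was Cd68 (4.08 ± 0.406 CPM), and most of the dendritic cell sum was Zbtb46 (9.49 ± 1.22 CPM; SD, n = 3). The transporter levels thus come from libraries in which T cell transcripts far outweighed those of other blood cells. In such bulk samples fewer expressing cells and less RNA per cell cannot be told apart.

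All 9 transporter genes were expressed, and most of them had high CPM. Each of the 9 reached 1 CPM (against 30.2% of all symbols), and 7 reached 100 CPM (against 5.74% of all symbols and 19% of the 13530 symbols of at least 1 CPM). The median gene stood at 323 CPM, beside a median of 26.9 CPM over the symbols of at least 1 CPM. These CPM values are not scaled to gene length, and several members have long exons. Per kilobase, 95.4% of the 12839 genes of at least 1 CPM with a known length lay below Slc7a5 and 95.5% below Slc3a2. The shares were lower for Slc7a1 (83.0%), Slc38a2 (80.6%), Slc7a6 (80.3%) and Slc38a1 (72.5%). Together the 9 genes took 2233, 2236 and 2207 CPM in replicates 1, 2 and 3, or 2225 ± 15.8 CPM (SD, n = 3). Slc1a4 and Slc7a11 were the members below 100 CPM.

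Per kilobase of exon the 9 genes fell into a leading trio, a middle group and a tail. The trio was Slc1a5, Slc3a2 and Slc7a5 at 106 ± 1.40, 98.4 ± 1.63 and 95.2 ± 5.55 CPM per kilobase (SD, n = 3). Slc7a1 (30.9 ± 0.202), Slc38a2 (27.0 ± 1.48), Slc7a6 (26.4 ± 0.0859) and Slc38a1 (18.8 ± 0.868) followed, on the same scale. Slc1a4 stood at 9.99 ± 0.372 and Slc7a11 at 0.343 ± 0.113 CPM per kilobase. On merged exons the step from Slc7a5 down to Slc7a1 was 3.08-fold and that from Slc1a4 down to Slc7a11 29.1-fold. Neighbours in the order whose means lay apart by no more than the sum of their SDs were Slc3a2 and Slc7a5, and Slc38a2 and Slc7a6. In each of these pairs the order turned in replicate 3. All other neighbours were in the same order in 3 of 3 libraries. Without replicate 1 the means of Slc38a2 and Slc7a6 changed places.

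**Figure D1:**
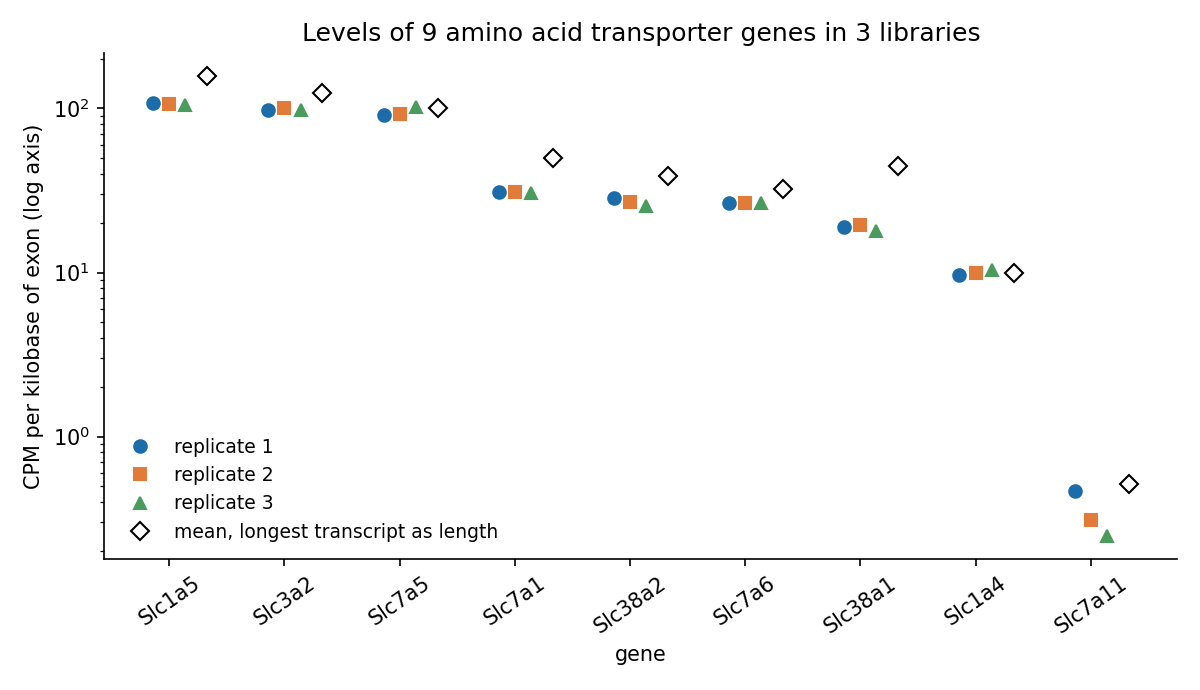
Level of each of the 9 genes in CPM per kilobase of exon (log axis) in the 3 libraries, with the mean on the length of the longest transcript as open diamonds. Slc1a5, Slc3a2 and Slc7a5 lie near 100 in all libraries, Slc7a11 below 1, and the diamond of Slc38a1 stands well above its points.

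The place of Slc38a1 in this order rests on the gene length. Its merged exons span 17236 bases and its longest annotated transcript 7266 bases. On the longest transcript its level was 44.5 in place of 18.8 CPM per kilobase, ahead of Slc38a2 (39.0) and Slc7a6 (32.2). Values on the longest transcript were also more than 1.5 times the merged-exon values for Slc7a1 (49.6 CPM per kilobase) and Slc7a11 (0.518). Slc1a5, Slc3a2, Slc7a5 and Slc7a1 kept the top 4 places and Slc1a4 and Slc7a11 the last places on either length. The steps were smaller on the longest transcripts, 2.02-fold from Slc7a5 to Slc7a1 and 19.3-fold from Slc1a4 to Slc7a11. There Slc3a2 lay above Slc7a5, and Slc38a2 above Slc7a6, in 3 of 3 libraries and by more than the sum of their SDs. Without length scaling the mean of Slc7a1 (356 CPM) was above those of Slc7a5 (353 CPM) and Slc3a2 (347 CPM), and the last step was 8.21-fold.

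Slc1a5 (ASCT2, chromosome 7, 16781340 to 16798274, GRCm38) and Slc1a4 (ASCT1, chromosome 11, 20302180 to 20332713) are related sodium-dependent exchangers of small neutral amino acids, of which Slc1a5 carries glutamine. Slc1a5 had 8526, 5629 and 6421 reads, or 448, 444 and 436 CPM in replicates 1, 2 and 3. No difference beyond counting error was called between the libraries (edgeR likelihood-ratio test, adjusted p = 0.702), and no transporter gene examined was higher. Slc1a4 had 724, 491 and 601 reads, or 38.0, 38.8 and 40.8 CPM. Here too no difference between the libraries was called (edgeR likelihood-ratio test, adjusted p = 0.571). Per kilobase Slc1a5 exceeded Slc1a4 10.6-fold, a log2 ratio of 3.41 ± 0.07 (SD, n = 3), and 15.8-fold on the longest transcripts. Of the 12839 genes of at least 1 CPM with a known length, 95.9% lay below Slc1a5 and 55.5% below Slc1a4 per kilobase.

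Slc38a1 (SNAT1) and Slc38a2 (SNAT2) are sodium-coupled importers of glutamine, alanine and other small neutral amino acids, and SNAT2 is known for its rise when amino acids are scarce. They are neighbours on the minus strand of chromosome 15, at 96571418 to 96642913 and 96687392 to 96699730, with 44478 bases between them. Slc38a1 stood at 327, 336 and 307 CPM and Slc38a2 at 252, 237 and 226 CPM in replicates 1, 2 and 3. Replicate 3 was the lowest for each of the neighbours. The reads of Slc38a1 exceeded those of Slc38a2 1.36-fold. Per kilobase of merged exon the order was the opposite, with Slc38a2 1.44-fold above Slc38a1 (log2 ratio 0.52 ± 0.06; SD, n = 3), and on the longest transcripts Slc38a1 was again 1.14-fold above. Which of the pair was the more abundant transcript could therefore not be settled from these counts. Slc1a5 lay above Slc38a2 in 3 of 3 libraries, 3.94-fold per kilobase and 1.86-fold in reads.

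Slc3a2 (CD98 heavy chain, chromosome 19, 8706882 to 8723369) is a single-pass glycoprotein that does not itself transport. It brings light chains of the SLC7 family to the cell surface, to which each is held by a disulfide bond. Slc3a2 had 345, 354 and 343 CPM in replicates 1, 2 and 3 and was not called as varying (edgeR likelihood-ratio test, adjusted p = 0.54). Its light chain Slc7a5 (LAT1, chromosome 8, 121881150 to 121907694) had 339, 343 and 377 CPM, with replicate 3 above the others. Heavy chain and main light chain were thus close in level. Per kilobase the log2 ratio of Slc7a5 to Slc3a2 was -0.10, -0.12 and 0.06 in replicates 1, 2 and 3, with a mean of -0.05 ± 0.10 (SD, n = 3). The sign turned in replicate 3, and the mean moved to -0.30 on the longest transcripts and to 0.02 in reads.

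Slc7a6 (y+LAT2, chromosome 8, 106168857 to 106198706) pairs with Slc3a2 to exchange cationic amino acids such as arginine for neutral ones with sodium. It was the steadiest member, at 120, 121 and 121 CPM in replicates 1, 2 and 3. Per kilobase it lay 3.72-fold below Slc3a2 and 3.60-fold below Slc7a5, in 3 of 3 libraries. Slc7a11 (xCT, chromosome 3, 49892526 to 50443614) is the cystine-glutamate antiporter, whose cystine feeds glutathione synthesis. It had 124, 55 and 51 reads, or 6.51, 4.34 and 3.47 CPM in replicates 1, 2 and 3. The exact 95% Poisson intervals were 5.42 to 7.76, 3.27 to 5.65 and 2.58 to 4.56 CPM (counting error only), so replicates 1 and 3 did not overlap. Of those genes 2.70% lay below Slc7a11 per kilobase, while in CPM 20.3% of the 13530 symbols of at least 1 CPM did. Slc7a5 exceeded it 285-fold (log2 ratio 8.15 ± 0.53; SD, n = 3) and 75.9-fold in reads. The GENCODE model of Slc7a11 has merged exons of 13922 bases, and 221 of its 13880 31-mers also occur in transcripts of the tubulin gene Tuba1a (5958, 3731 and 4486 reads). How many of the few Slc7a11 reads came from such stretches was not tested.

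The 6 known light chain partners of Slc3a2 were set side by side per kilobase. Slc7a5 made up 76.9, 77.2 and 78.7% of their sum in replicates 1, 2 and 3 and Slc7a6 22.2, 22.1 and 20.4%. Slc7a10 (0.413 ± 0.151%), Slc7a11 (0.282 ± 0.102%), Slc7a7 (0.0619 ± 0.0305%) and Slc7a8 (0.0437 ± 0.0250%) shared the small remainder (SD, n = 3). Slc7a10 and Slc7a11 did not differ beyond their spread per kilobase, but without length scaling Slc7a11 was the higher, at 1.39, 0.925 and 0.690% in the 3 libraries against 0.236, 0.134 and 0.297% for Slc7a10. Slc7a7 had 2, 4 and 5 reads and Slc7a8 8, 3 and 2 reads. The ratio of Slc3a2 to the summed light chains was 0.822, 0.837 and 0.754, or 0.804 ± 0.0445 (SD, n = 3), and 0.924 ± 0.0496 on the longest transcripts. The heavy chain transcript was thus below the sum of its partners on both lengths.

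**Figure D2:**
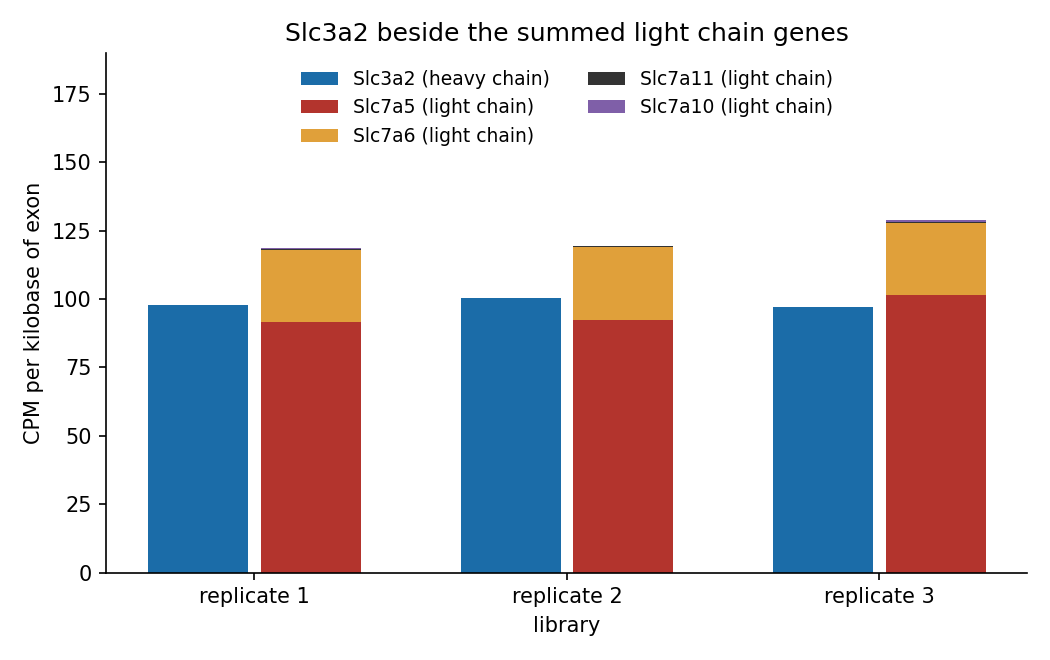
Bars give Slc3a2 and, stacked, its light chain genes in CPM per kilobase of exon in each library (Slc7a7 and Slc7a8 are too low to draw). The Slc7a5 bar grows in replicate 3 while Slc3a2 does not, and Slc7a11 and Slc7a10 are barely visible.

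Slc7a1 (CAT1, chromosome 5, 148327410 to 148399904) is the sodium-independent importer of arginine and lysine and works without Slc3a2. It had 357, 358 and 353 CPM in replicates 1, 2 and 3, a range of 0.02 log2 units (edgeR likelihood-ratio test, adjusted p = 0.972). Of the pair that carries cationic amino acids, Slc7a1 lay above Slc7a6 in 3 of 3 libraries. The difference was 1.17-fold per kilobase (log2 ratio 0.23 ± 0.01; SD, n = 3), 1.54-fold on the longest transcripts and 2.95-fold in reads. Among 9 gene pairs compared within libraries, 8 had the same sign in each library, and Slc7a5 to Slc3a2 was the exception. An exact two-sided sign-flip permutation test gave p = 0.25 for the 8 pairs, which is the smallest that 3 libraries allow, and an adjusted p of 0.281 over the 9 pairs. No pair could therefore pass a threshold of 0.05.

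The promoters of the members were searched for short motifs of factors known to act on such genes. RefSeq windows (GRCm38.p6) of 250 bases before to 50 bases after the start were at hand for 6 members (8 windows), namely Slc7a11, Slc7a1, Slc7a6, Slc1a4, Slc38a2 and Slc3a2. Windows of Slc7a5, Slc1a5 and Slc38a1 were not used here. The core TGATGNAA, which is bound by ATF4 with C/EBP partners in genes that respond to amino acid shortage, occurred on either strand in 2 of the 8 windows (2 of the 6 members), against 3.97% of all 32851 windows. Slc7a11 held 2 copies, which face each other with 11 bases between them, and Slc1a4 held 1. Both genes are among the least abundant members, but the abundant Slc1a5 and Slc7a5 had no window here. A link of the core to level was therefore not tested. The stretches are shown to compare the members that carry them, with the cores in capitals, read 5′ to 3′ on the gene's own strand (minus for both genes).
Slc7a11, chr3:50443643-50443689: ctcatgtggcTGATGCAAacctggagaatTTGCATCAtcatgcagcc
Slc1a4, chr11:20332700-20332727: gcctcctgcgTTGCATCAtctccagcct
The Slc7a11 stretch runs from 76 to 30 bases before the start, and the Slc1a4 core begins 4 bases before it. The factor gene Atf4 itself was at 495 ± 3.05 CPM (SD, n = 3). A match is only a string of letters, and no binding was measured.

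The core TGACNNNGC, the antioxidant response motif bound by NRF2 (gene Nfe2l2), occurred in 4 of the 8 windows (3 of the 6 members, the overlapping windows of Slc7a6 sharing 1 match), against 12.4% of all windows. It does not overlap the ATF4 cores above. The matches are shown to compare the members that carry them, on the gene's own strand (minus for Slc7a1 and Slc38a2, plus for Slc7a6) with the core in capitals.
Slc7a1, chr5:148399897-148399925: cggccgcgcgGCGCTGTCAttggtgccct
Slc7a6, chr8:106168843-106168871: ccggtgcgagTGACGTGGCgtgggcgggg
Slc38a2, chr15:96699737-96699765: ccccgcccacTGACGCGGCgccccgccgc
Slc7a11, a known target of NRF2, held none in its window, which says only that these letters are not there. The E-box CACGTG, a motif of MYC, was in 0 of the 8 windows and in 7.15% of all windows. At that share so few windows cannot show whether the motif is rarer among the members, and Slc7a5, Slc1a5 and Slc38a1 were not covered.

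Between libraries, 4 of the 9 members varied by more than counting noise. They were Slc7a5, Slc38a2, Slc38a1 and Slc7a11 (edgeR likelihood-ratio test with dispersion 0, Benjamini-Hochberg adjustment over 13500 genes). Of all genes tested 13.7% varied, and of the 2570 tested genes of at least 100 CPM, which the test calls more readily, 33.9%. With 7 members in that range, the members' count is no result about them as a group. The differences were small apart from Slc7a11. The highest library exceeded the lowest 1.11-fold for Slc7a5, 1.12-fold for Slc38a2, 1.10-fold for Slc38a1 and 1.88-fold for Slc7a11. The median range over the 9 members was 0.10 log2 units, beside 0.17 over all tested genes and 0.09 over those of at least 100 CPM.

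The 4 varying members did not all move the same way, though Slc38a1, Slc38a2 and Slc7a11 were each lowest in replicate 3. Slc7a5 was highest in replicate 3 (377 CPM against 339 and 343; edgeR adjusted p = 6.59e-08), while Slc38a1 was lowest there (307 CPM against 327 and 336; edgeR adjusted p = 0.00332). Each of them lost its call without replicate 3 (edgeR adjusted p = 0.813 and 0.473). Slc38a2 (edgeR adjusted p = 0.000555) and Slc7a11 (edgeR adjusted p = 0.00411) were highest in replicate 1 and lowest in replicate 3. They lost their calls without replicate 1 (edgeR adjusted p = 0.341 and 0.569) and without replicate 3 (edgeR adjusted p = 0.106 and 0.115). Between replicates 1 and 2 alone, edgeR's test called 0 members, and 2 members had an unadjusted p under 0.05. Rn18s-rs5, a pseudogene of ribosomal RNA, showed the same order of libraries as Slc38a2 and Slc7a11, with 10918, 9686 and 8858 CPM, as did the nuclear RNA Malat1 with 1781, 1600 and 1364 CPM. The summed B cell markers (16.6, 14.8 and 14.6 CPM) and erythroid markers (1.89, 1.66 and 1.56 CPM) also had this order. Of the 5 B cell markers, however, 0 were called as varying in edgeR's test, and 0 erythroid markers passed its filter. The macrophage (4.67, 3.71 and 4.76 CPM), dendritic cell (9.19, 11.5 and 9.45 CPM), neutrophil (0.158, 0.237 and 0.340 CPM) and natural killer cell markers (0.368, 1.03 and 0.951 CPM) had other orders. The part of these transcripts in the result was not tested.

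**Figure D3:**
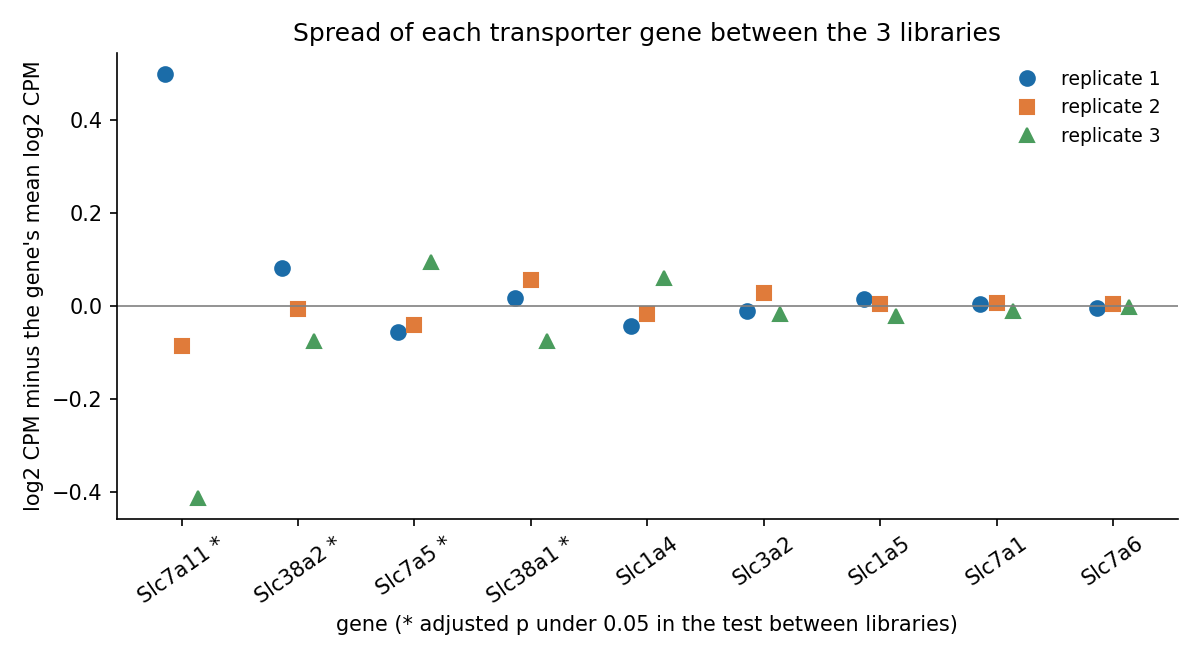
Each point is the log2 CPM of 1 library minus the gene's mean over the 3 libraries, with genes ordered by their range. Slc7a11 spans 0.91 log2 units, all other genes less than 0.2, and replicate 3 is highest for Slc7a5 and lowest for Slc38a1.

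The 9 genes were then placed among a list of other amino acid transporter genes. This list held 39 further genes from the SLC1, SLC3, SLC6, SLC7, SLC16, SLC36, SLC38 and SLC43 families. Members belong to SLC1, SLC3, SLC7 and SLC38 only. The list does not cover these families in full, with 1 SLC16 gene and the lysosomal transporters listed apart. Of the 39 genes, 10 reached 1 CPM (25.6%, beside 30.2% of all symbols) and 2 reached 100 CPM. A further 18 had no read in any library, which allows up to 0.158, 0.237 and 0.204 CPM in replicates 1, 2 and 3. The 9 members made up 85.0 ± 0.604% of the summed level of all 48 genes per kilobase, and 81.5 ± 0.645% in CPM (SD, n = 3). Since the members were picked as transporters known from activated T cells, their weight is a description of the choice as well as of the cells.

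The first 6 places among the 19 expressed members and listed genes were taken by members on either length, with Slc38a1 in place of Slc7a6 on the longest transcripts. On merged exons, next came Slc38a10 at 24.4 ± 1.34 and Slc6a6, the taurine transporter, at 22.2 ± 0.550 CPM per kilobase (SD, n = 3), just above Slc38a1. Slc6a9, a glycine transporter, stood at 9.91 ± 0.797 CPM per kilobase, beside Slc1a4 and within its spread, but at 14.7 on the longest transcript, where Slc1a4 stayed at 9.99. Slc7a3, a cationic amino acid transporter related to Slc7a1, was at 5.32 ± 0.693, and Slc43a2, a further system L transporter, at 4.08 ± 0.256 CPM per kilobase (both named after their values were seen). Slc7a11 was flanked by Slc7a10 (0.510 ± 0.205) and Slc43a1 (0.294 ± 0.102), and none of these 3 differed from its neighbour beyond their spread per kilobase. In CPM, without length scaling, Slc7a11 (4.77 ± 1.57) lay above Slc43a1 (1.68 ± 0.584) and Slc7a10 (1.08 ± 0.432) by more than the sum of the SDs. Of the 10 other genes tested, 1 varied between the libraries, Slc38a10 (163, 147 and 160 CPM; edgeR adjusted p = 0.0128). Among 7 transporters of the lysosomal membrane, 6 reached 1 CPM and 0 reached 100 CPM. The highest per kilobase of merged exon were Slc38a7 (7.56 ± 0.25), the cystine exporter Ctns (6.95 ± 0.515) and Slc36a1 (5.72 ± 0.766), all below Slc1a4. On the longest transcripts Slc38a7 (9.40 ± 0.311) came close to Slc1a4 (9.99 ± 0.372). Of the 6 lysosomal genes tested, 1 varied between the libraries, Slc36a1 (27.3, 35.2 and 34.1 CPM; edgeR adjusted p = 0.000797).

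**Figure D4:**
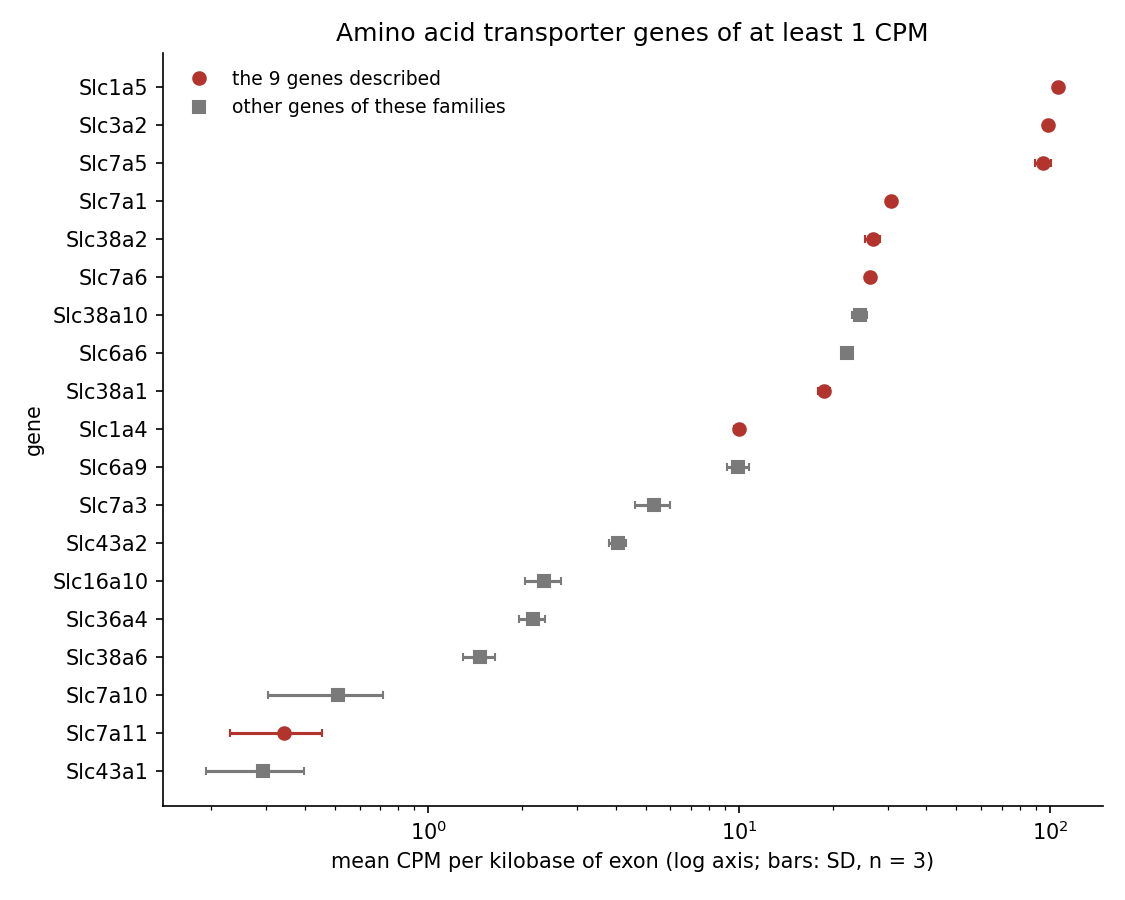
Mean CPM per kilobase of exon (log axis, bars are SD over 3 libraries) of the 19 listed genes of at least 1 CPM. The 9 described genes are red circles and the others grey squares. The 6 highest genes are members, and Slc7a11 is the 18th of 19.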

How the data were processed

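RNA from 3 libraries of 1 group (splenic T cells after 15 h with LZ-8) was read from a table of raw counts per gene symbol that the authors deposited, with 1 column per library. Per the labels' protocols the libraries were made with an Ion Proton RNA-seq kit, and per the submitters' processing notes the build was mm10. Not given in the sources used here are the aligner, the counter, whether strand was used, and how multi-mapped reads were treated. Of the samples' columns 0 were left unused.

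CPM was computed from column totals. Exon lengths, positions and 31-mers shared between genes came from GENCODE vM21 (GRCm38), which gave a length to 32250 of the 44788 symbols and to all 9 members. Of 36 pairs of members, 1 shared any 31-mer (3 in all), and no exon of another annotated gene overlapped a member's exons. Members had 0 to 6.94% of their 31-mers in other genes' transcripts. Differences between libraries were tested with edgeR 4.0.16 (TMM factors; likelihood-ratio test on glmFit, with the dispersion fixed at 0; p-values adjusted by Benjamini-Hochberg) on all genes that reached 1 CPM in 2 or more libraries. edgeR's quasi-likelihood test needs replicates within a level and could not be fitted. The likelihood-ratio test was checked only on simulated counts without spread beyond counting error. Its behaviour on libraries with more spread was not checked. Ratios had 0.5 added to each count. Intervals and limits for 0 reads (3 counts) cover counting error only. Promoter windows came from RefSeq. A planned comparison of the encoded proteins was not made.

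The members, the 12 gene lists (112 genes, 4 found under an older symbol) and the tests were chosen with earlier results of these data known. Named are all members, of each pathway list the 3 highest genes per kilobase, the Slc3a2 light chains, the neighbours of members in the order of levels and at most 2 genes of each marker list. Other genes, namely Slc7a3, Slc43a2, Arg1, Arg2, Nos2, Tuba1a, Rn18s-rs5, Malat1 and the markers at 0 reads, were named after their values were seen. Alternatives were DESeq2 1.42.0 size factors, column totals, other filters, lengths, thresholds and pseudocounts, and leaving out each library. The software was Python 3.11.15 with Biopython 1.88, pandas 2.3.3, scipy 1.17.1, matplotlib 3.10.9 and numpy 2.4.6, and R 4.3.3.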

Additional observations from a re-analysis of the deposited data

How the results depend on the processing

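No paired analysis was possible because there is only 1 group of samples. The mean CPM of each of the 9 members stayed within 1 SD under DESeq2 size factors, TMM sizes and with any library left out. The count of varying members was also 4 under other scalings and filters, except for 3 with a filter of 10 CPM in 2 libraries. That filter left Slc7a11 untested, and the calls of Slc7a5, Slc38a1 and Slc38a2 were kept. With a library left out the count ranged from 0 (without replicate 3) to 4. Length decided most of the rest. Without length scaling 4 of 9 places in the order were kept, and 6 on the longest transcripts. Without length scaling the log2 ratios turned for Slc7a5 to Slc3a2 (0.022) and Slc38a2 to Slc38a1 (-0.44), and moved for Slc7a6 to Slc3a2 (-1.52), Slc7a11 to Slc3a2 (-6.22), Slc7a5 to Slc7a6 (1.55), Slc7a5 to Slc7a11 (6.25), Slc1a5 to Slc1a4 (3.50), Slc1a5 to Slc38a2 (0.90) and Slc7a1 to Slc7a6 (1.56). On the longest transcripts Slc38a2 to Slc38a1 turned (-0.19), and Slc7a5 to Slc3a2 (-0.30), Slc7a6 to Slc3a2 (-1.94), Slc7a5 to Slc7a6 (1.64), Slc1a5 to Slc1a4 (3.98) and Slc7a1 to Slc7a6 (0.62) moved. The share of Slc7a5 among light chains was 73.5% without length scaling and 75.0% on the longest transcripts, and the ratio of Slc3a2 to their sum 0.724 and 0.924. Other pseudocounts and left-out libraries moved no ratio by more than its SD. At the depth of these libraries Slc7a11, with 51 to 124 reads, was the least precise member.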

Other observations

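Genes that sense or use the imported amino acids were read from the same libraries. All 14 sensors and regulators reached 1 CPM and 4 reached 100 CPM. The highest per kilobase were Atf4, the transcription factor of the amino acid response, at 210 ± 1.29 CPM per kilobase (SD, n = 3), the transcription factor gene Myc, which is known to drive transporter expression in T cells, at 166 ± 5.48, and Hif1a at 77.5 ± 0.463. Atf4 and Myc stood above every transporter member on this scale. Myc varied between the libraries, with 453, 436 and 466 CPM in replicates 1, 2 and 3. The highest library exceeded the lowest 1.07-fold (edgeR likelihood-ratio test, adjusted p = 0.0062). A link of Myc to the transporter levels was not tested. Of the 14, 1 gene varied, beside 13.7% of all genes tested.

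Of 10 enzymes that use imported amino acids, 7 reached 1 CPM. Asparagine synthetase Asns (40.0 ± 2.03 CPM per kilobase), Gclc, the catalytic subunit of the first enzyme of glutathione synthesis (29.5 ± 1.03), and the branched-chain aminotransferase Bcat2 (13.3 ± 0.340) were the highest (SD, n = 3). Gclc thus stood far above Slc7a11 (0.343 ± 0.113), which brings in the cystine for that pathway. The 3 enzymes under 1 CPM, named after their values were seen, were the arginine consumers Arg1 (0 reads), Arg2 (4, 0 and 1 reads) and Nos2 (1, 0 and 1 reads), while the arginine importer Slc7a1 was at 356 ± 2.33 CPM.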
